A study of Rattus norvegicus with 12 samples.

Results

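GABA-A receptor subunits were followed through 7 genes, Gabra2, Gabra3, Gabra4, Gabra5, Gabra6, Gabrb2 and Gabrd, in cultures of rat cerebellar granule neurons, the small excitatory neurons of the cerebellum. The members were the probe sets whose only gene symbol in the platform's table was one of these names, which gave 11 probe sets among the 31099 on the array and 7 of 14217 named genes. All 11 passed the filter on dim probe sets, which kept 18625 probe sets. Total RNA was measured on 12 arrays in 4 groups of 3: GW5074 at 6 h, low potassium at 6 h, GW5074 at 3 h and low potassium at 3 h, each with arrays lettered A, B and C, so that GW_6h B is array B of GW5074 at 6 h and LK_3h A is array A of low potassium at 3 h. GW5074 is a small molecule known as an inhibitor of the kinase c-Raf, and withdrawal of potassium is used to trigger the death of granule neurons. The labels give neither the age nor the strain of the rats, and they do not state if potassium was also low in the GW5074 cultures or if the letters are separate cultures. P-values therefore reflect differences between arrays, which may come from technical steps alone. No raised-potassium or untreated group was analysed here, and the 6 h and 3 h groups also differ in time in culture, which cannot be told apart from treatment time.

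GABA-A receptors are chloride channels built of 5 subunits that open when they bind the inhibitory transmitter GABA. In the mature rodent cerebellum, alpha 6 is a subunit typical of granule neurons and appears as these cells mature, often together with the delta subunit in receptors outside the synapse. Alpha 2 and alpha 3 are found more in young neurons of this lineage, and beta subunits form part of the GABA binding site.

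Members differed between the times and not detectably between the treatments. Gabra6 and Gabrb2 rose and Gabra2 fell at 6 h relative to 3 h, in GW5074 cultures as well as in low potassium, while Gabra3, Gabra4, Gabra5 and Gabrd did not pass the test in either. No member passed the test for GW5074 against low potassium at either time. Levels below are deposited array intensities. Differences are on the scale of log2(quantile-normalised intensity + 16), which understates the change of dim genes, and were tested with limma across all 18625 probe sets with Benjamini-Hochberg adjustment and a threshold of 0.05. A gene is represented by its brightest probe set. Different probe sets respond differently, so levels are compared between arrays and not between genes.

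The 2 genes that rose, Gabra6 and Gabrb2, are adjacent protein-coding genes on chromosome 10 of the rat assembly GRCr8. The 250 bases upstream of each start (RefSeq, GRCr8) are shown because these members moved together. They were searched on both strands for the nuclear factor I half-site TTGGC, the E-box CANNTG, the CRE half-site TGACG, the AP-1 site TGANTCA and the TATA box TATAAA. The Gabra6 stretch is chr10:27327235-27327484 on the minus strand and that of Gabrb2 is chr10:27439543-27439792 on the plus strand. Both are printed 5′ to 3′ along the gene, and capitals mark the nuclear factor I half-site, read on the opposite strand as TTGGC.
Gabra6: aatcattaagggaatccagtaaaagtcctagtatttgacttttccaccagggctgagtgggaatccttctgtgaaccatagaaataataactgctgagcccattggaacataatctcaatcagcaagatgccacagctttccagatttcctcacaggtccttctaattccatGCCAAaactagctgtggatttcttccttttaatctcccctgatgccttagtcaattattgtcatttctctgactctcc
Gabrb2: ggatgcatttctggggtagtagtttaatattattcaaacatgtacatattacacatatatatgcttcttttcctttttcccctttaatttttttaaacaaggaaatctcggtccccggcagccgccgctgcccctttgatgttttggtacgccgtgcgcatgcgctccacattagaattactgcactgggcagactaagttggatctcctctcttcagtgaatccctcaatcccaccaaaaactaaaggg
The Gabra6 stretch held 1 match, the half-site that begins 78 bases before the start, and that of Gabrb2 held none of the 5 motifs. The half-site occurred in 40.3% of the 33469 rat promoters of the same length, the E-box in 65.5%, the CRE half-site in 18.2%, the AP-1 site in 6.34% and the TATA box in 12.9%. GC content was 41.2% in the Gabra6 stretch and 43.2% in that of Gabrb2, against a median of 51.2% over all promoters. Of the 7 members 6 had a promoter in the table. Among those that did not pass the test of time, GC content was 40.4% for Gabra3, 71.6% for Gabra4, 76.4% for Gabra5 and 74% for Gabrd, so it lay on both sides of the 2 genes that rose. The 4 other promoters of members held 1 half-site (Gabra4), 1 E-box (Gabra5), 1 TATA box (Gabra3) and no match (Gabrd). No promoter held more than 1 match, so no motifs overlapped. These matches describe letters only.

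Gabra6, the alpha 6 subunit, rose the most of the members. Its intensity was 1252, 777 and 1378 on arrays A, B and C of GW5074 at 6 h, against 178, 255 and 369 with GW5074 at 3 h. Low-potassium cultures had 1236, 755 and 1268 at 6 h, against 247, 188 and 465 at 3 h. Every 6 h array lay above every 3 h array, and the B array was the lowest of each 6 h group. The mean was 1135 ± 317 and 267.0 ± 96.2 with GW5074 at 6 h and 3 h, and 1087 ± 287 and 300.4 ± 146 in low potassium (SD, n = 3 each). The difference was 2.05 with GW5074 (4.14-fold, SE 0.32, limma adjusted p = 0.000830) and 1.86 in low potassium (3.64-fold, SE 0.32, adjusted p = 0.00179). The second Gabra6 probe set read the same direction. It had 719, 417 and 781 with GW5074 at 6 h, against 133, 122 and 204 at 3 h, and differed by 1.89 (adjusted p = 0.000411). In low potassium it had 727, 432 and 651 at 6 h, against 132, 129.6 and 203 at 3 h, a difference of 1.81 (adjusted p = 0.000769).

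Gabrb2, the beta 2 subunit and a common partner of alpha subunits in adult brain receptors, rose less. Its intensity was 1308, 708 and 1867 with GW5074 at 6 h (A, B, C), against 659, 563 and 601 at 3 h. In low potassium the values were 1208, 818 and 1349 at 6 h, against 619, 531 and 702 at 3 h. The groups did not overlap within either treatment, but GW_6h B lay close to the highest 3 h array. The difference was 1.02 with GW5074 (2.03-fold, SE 0.28, adjusted p = 0.0160) and 0.85 in low potassium (1.80-fold, SE 0.28, adjusted p = 0.0406). The dimmer Gabrb2 probe set spanned 61.0 to 212 with GW5074 at 6 h, against 38.4 to 92.9 at 3 h, and its difference of 0.70 did not pass (adjusted p = 0.174). In low potassium that probe set spanned 118 to 203 at 6 h, against 56.8 to 91.7 at 3 h, a difference of 0.95 that did not pass either (adjusted p = 0.0732). The call of the bright probe set was the more fragile of the 2 rises. With GW5074 it ended without GW_3h B (adjusted p = 0.0597), GW_6h A (0.0669) or GW_6h C (0.0727, difference 0.70). In low potassium it ended without GW_3h B (0.0546), GW_6h A (0.0523), LK_3h A (0.0902), LK_3h B (0.140), LK_3h C (0.0525), LK_6h A (0.125) or LK_6h C (0.147).

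Gabra2, the alpha 2 subunit, fell. Its intensity was 83.0, 87.7 and 36.5 with GW5074 at 6 h (A, B, C), against 162, 124 and 118 at 3 h. Low-potassium cultures had 56.4, 69.0 and 63.1 at 6 h, against 151, 119 and 91.6 at 3 h. All 6 h arrays lay below all 3 h arrays, and GW_6h C was the lowest of the 12. The difference was -0.89 with GW5074 (1.86-fold lower, SE 0.24, adjusted p = 0.0167) and -0.82 in low potassium (1.76-fold lower, SE 0.24, adjusted p = 0.0275). With GW5074 the call ended without GW_3h A (0.0714) or GW_6h C (0.0724, difference -0.60). In low potassium it ended without LK_3h A (0.110), LK_3h B (0.0801), LK_6h A (0.0939) or LK_6h C (0.0645). On chromosome 14 of GRCr8, Gabra2 and Gabra4 are separated by 1 protein-coding gene, Cox7b2, and Gabrb1 lies on the other side of Gabra4. Gabra4 and Gabrb1 did not pass the test in either treatment.

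**Figure D1:**
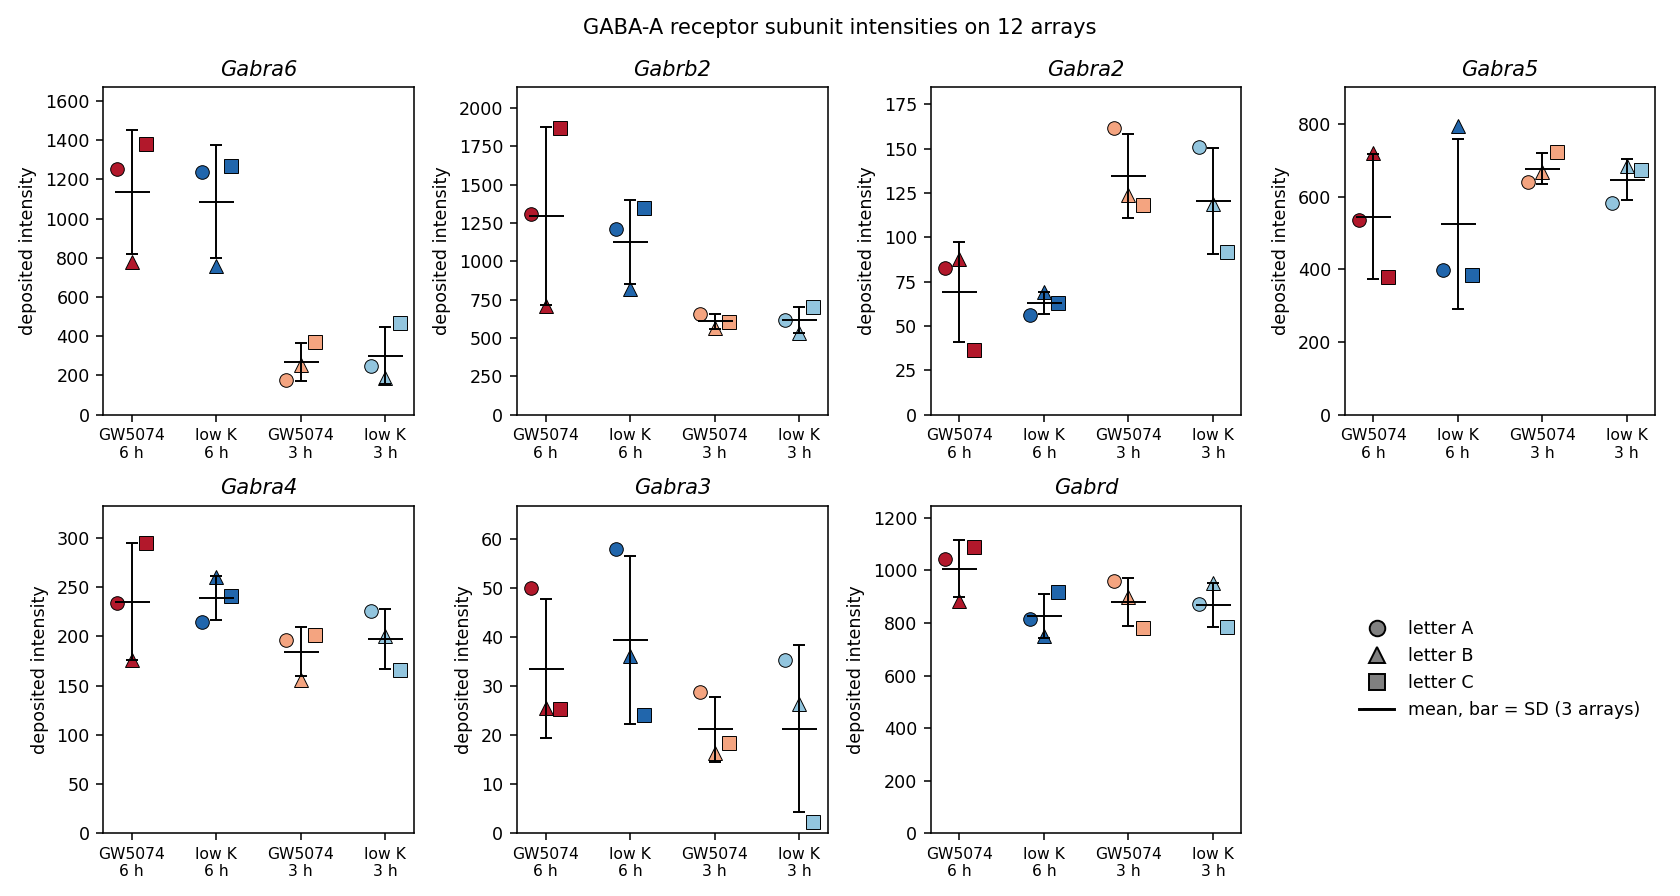
Deposited intensity of each subunit's brightest probe set (vertical axis, linear, from 0) on the 12 arrays, by group, with letters A, B and C as circles, triangles and squares and lines for the mean and SD of 3 arrays. For Gabra6 the 6 h arrays lie between 755 and 1378 and the 3 h arrays between 178 and 465, for Gabra2 the 6 h arrays lie below the 3 h arrays, and for Gabrd all groups overlap.

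With GW5074, 2 of the 7 members rose and 1 fell, and in low potassium the same 3 genes were called in the same directions. Arrays of the same letter and time correlated between the treatments, so the 2 treatments are not independent tests of time. Of the 10260 genes tested by their brightest probe set, 13.5% rose and 14.1% fell with GW5074, and 11.5% rose and 14.1% fell in low potassium. The members' median difference was 0.23 with GW5074 and 0.20 in low potassium, against medians of -0.02 and -0.04 over all genes tested.

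The other 4 members did not pass the test of time in either treatment. Gabra5, the alpha 5 subunit, found mostly outside synapses, had 536, 721 and 378 with GW5074 at 6 h (A, B, C), against 641, 667 and 724 at 3 h. The low-potassium values were 397, 794 and 384 at 6 h, against 582, 683 and 674 at 3 h. The B array was the highest of each 6 h group, and arrays A and C of both 6 h groups lay below all 3 h arrays. With all arrays the differences of -0.36 with GW5074 and -0.38 in low potassium did not pass (adjusted p = 0.334 and 0.316). Without both 6 h B arrays they were -0.59 (adjusted p = 0.0107) and -0.72 (adjusted p = 0.00393), and both passed. Leaving out the highest array of each 6 h group makes a fall larger by construction, so these calls do not support a fall. Leaving out LK_6h B alone gave -0.72 in low potassium (adjusted p = 0.0222), whereas leaving out GW_6h B alone gave -0.59 with GW5074 (adjusted p = 0.102).

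The 6 h B arrays lay between the times when read over all 18625 probe sets. On a scale where 0 is the mean of the 3 h arrays and 1 the mean of the 6 h arrays, each array being left out of its own end point, GW_6h B lay at 0.589 and LK_6h B at 0.657. The other 6 h arrays lay between 1.03 and 1.17, and the 3 h arrays between -0.054 and 0.171. For single members, 1 was set to the mean of the 6 h A and C arrays. On that scale the GW_6h B and LK_6h B arrays stood at 0.663 and 0.645 for Gabra6, 0.180 and 0.345 for Gabrb2, and 0.533 and 0.823 for Gabra2. For Gabra5 they were on the far side of the 3 h mean, at -0.211 and -0.417. The B arrays were the 6 h arrays nearest to the 3 h arrays in these same data, so leaving them out tends to widen time differences by construction. The values without them are therefore a description and add no support. Without both B arrays, Gabra6 differed by 2.31 with GW5074 (adjusted p = 0.000136) and 2.11 in low potassium (0.000275). Gabrb2 then differed by 1.42 (3.8e-05) and 1.06 (0.000323), and Gabra2 by -1.05 (0.00944) and -0.87 (0.0260). With Gabra5, that made 4 of 7 members called in each treatment, while the share of all 10260 genes called in either direction was 35.1% with GW5074 and 33.6% in low potassium, against 27.6% and 25.6% with all arrays.

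Gabra4, the alpha 4 subunit, which pairs with delta in forebrain receptors outside the synapse, had 234, 176 and 295 with GW5074 at 6 h, against 196, 156 and 201 at 3 h. The low-potassium arrays read 215, 261 and 241 at 6 h, against 226, 201 and 166 at 3 h. The groups overlapped, and the differences were 0.23 (adjusted p = 0.388) and 0.20 (adjusted p = 0.459). Gabra3, the alpha 3 subunit, was the dimmest member, with a mean of 28.9 over the 12 arrays, against the filter's limit of 28.0. It had 50.1, 25.5 and 25.3 with GW5074 at 6 h, against 28.7, 16.4 and 18.5 at 3 h, and 57.95, 36.1 and 24.1 in low potassium at 6 h, against 35.3, 26.4 and 2.34 at 3 h. Arrays of both times overlapped, and the differences of 0.45 (adjusted p = 0.389) and 0.68 (adjusted p = 0.180) did not pass. A change of that size was not detectable at this signal.

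Gabrd, the delta subunit, varied little. Its intensity was 1043, 885 and 1090.35 with GW5074 at 6 h (A, B, C) and 813, 752 and 917 in low potassium at 6 h. At 3 h it was 961, 899 and 782 with GW5074 and 871, 953 and 786 in low potassium. All 4 groups overlapped, and the 6 h minus 3 h difference was 0.22 with GW5074 (95% interval -0.04 to 0.48, adjusted p = 0.203) and -0.05 in low potassium (95% interval -0.31 to 0.20, adjusted p = 0.782). The SD of its log2 values over the 12 arrays was 0.16, against 1.11 for Gabra6.

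GW5074 against low potassium was the study's treatment contrast. None of the 7 members was called at 6 h or at 3 h. Without the letters as a block, limma called 0% of all genes in either comparison. At an unadjusted p under 0.05 stood 895 and 300 of the 18625 probe sets at 6 h and 3 h, and 1 and 0 of the members. With the letter as a replicate block within each time, limma called 1.95% of genes at 6 h and 0.00975% at 3 h, and again no member. At an unadjusted p under 0.05 that fit had 3036 and 1225 probe sets, and again 1 and 0 of the members. At 6 h the members' differences ran between -0.13 and 0.29. Their 95% intervals reached from -0.89 to 0.77 without the block and from -0.66 to 0.45 with it. At 3 h the differences ran between -0.11 and 0.14, with intervals that reached from -0.80 to 0.87 without the block and from -0.42 to 0.65 with it. With the block the widest intervals were those of dim Gabra3 (SE 0.25) and the narrowest those of Gabrd (SE 0.08), so the size of change that could be seen differed between members. The absence of a call does not show that the treatments act alike. Averaged over both times, differences ran between -0.08 and 0.15, and the change in the GW5074 difference between 6 h and 3 h ran between -0.24 and 0.27. Neither held a member call, against 0% of all genes in each without the block and 0.224% and 0.185% with it.

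Gabrd came closest. At 6 h the GW5074 array was above the low-potassium array in 3 of 3 letters, by 0.36, 0.24 and 0.27 for A, B and C, although the 2 groups overlapped. The mean was 1006 ± 107 with GW5074 and 827.6 ± 83.4 in low potassium (SD, n = 3 each), a difference of 0.29 (95% interval 0.03 to 0.55, unadjusted p = 0.0305, limma adjusted p = 0.983). With the replicate block its limma adjusted p was 0.0626. The second Gabrd probe set gave 0.10 and the third, a dim one, 0.02. By letter the second had -0.08, 0.08 and 0.31 for A, B and C, and the third 0.41, -0.07 and -0.30. The Gabrd probe sets therefore disagreed in size and, for single letters, in sign. The names of those 2 sets mark them as able to match more than 1 transcript. At 3 h the Gabrd difference was 0.02. For Gabra6, which rose in both treatments, the GW5074 minus low potassium difference was 0.08 at 6 h (95% interval -0.62 to 0.77) and -0.11 at 3 h (-0.80 to 0.58). At 6 h Gabra6 also lay above low potassium in 3 of 3 letters, by 0.03, 0.04 and 0.16, but its second probe set in 1 of 3. Gabra3 lay above in 0 of 3 letters at 6 h.

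**Figure D2:**
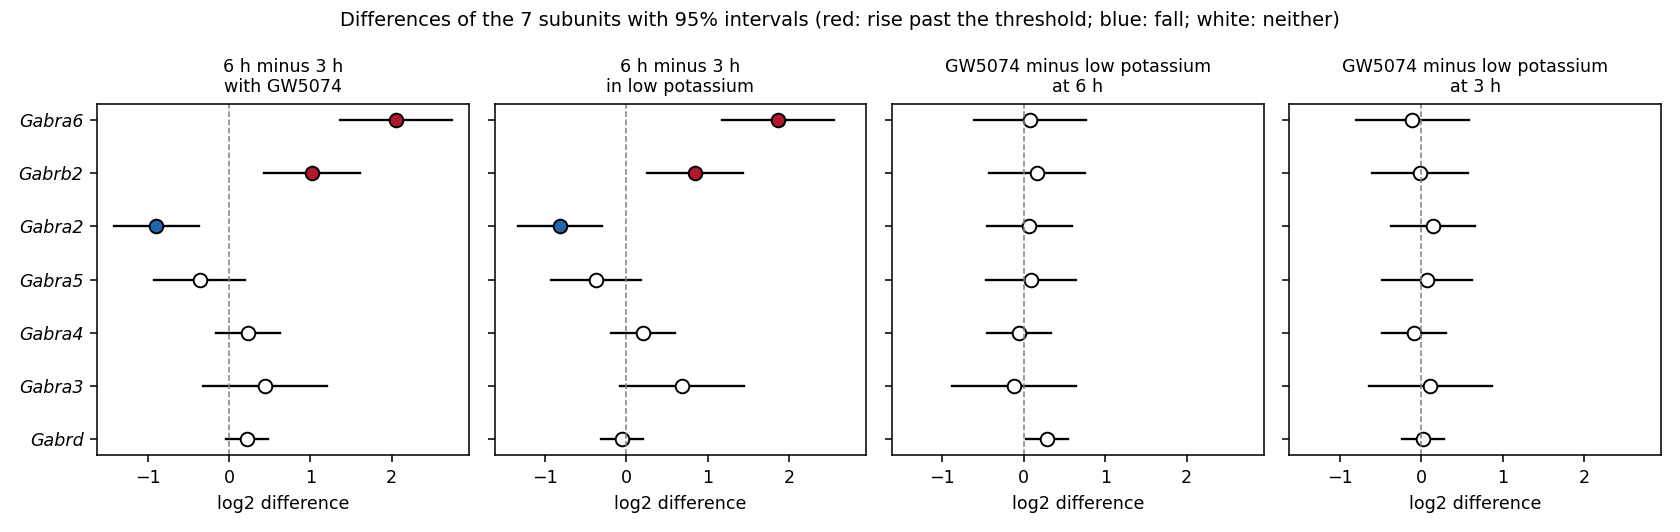
Log2 difference (horizontal axis) with 95% interval for each subunit in 4 comparisons, filled red for a rise past the threshold, blue for a fall and white for neither. Gabra6, Gabrb2 and Gabra2 are filled in both 6 h minus 3 h panels, and no subunit is filled in the GW5074 minus low potassium panels, where values stay between -0.13 and 0.29.

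Of the other GABA-A and GABA-rho subunit genes, 12 were listed, 9 were on the array and 1, Gabrb1, passed the filter. Gabrb1, the beta 1 subunit, ran between 189 and 338 over the 12 arrays. Its 6 h minus 3 h difference was 0.30 with GW5074 (adjusted p = 0.221) and 0.18 in low potassium (adjusted p = 0.477). It passed with GW5074 only when both 6 h B arrays were left out (0.45, adjusted p = 0.0474). Gabrg1, Gabrg3, Gabre, Gabrp, Gabrq, Gabrr1, Gabrr2 and Gabrr3 lay below the filter and were not tested.

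Further genes that make, move or respond to GABA were counted over 6 lists, those subunits included, with 35 genes tested. With GW5074, 7 rose and 2 fell at 6 h relative to 3 h, and in low potassium 5 rose and 3 fell. Of all 10260 genes tested, 27.6% were called in either direction with GW5074 and 25.6% in low potassium. The counts over the 6 lists were near these shares, which are also the background for each list below. The median difference of the 35 listed genes was 0.18 with GW5074 and 0.06 in low potassium. None of the 35 passed for GW5074 against low potassium in any comparison, with or without the block.

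The chloride transporters, which set the chloride gradient that GABA-A channels use, had 2 of 5 tested genes called in each treatment. Slc12a5, the chloride-extruding cotransporter KCC2, rose. It had 803, 359.5 and 537 with GW5074 at 6 h (A, B, C), against 101, 116 and 151 at 3 h, a difference of 1.96 (3.90-fold, adjusted p = 0.000343). In low potassium it had 435, 313 and 435 at 6 h, against 114, 96.5 and 172 at 3 h, a difference of 1.50 (2.83-fold, adjusted p = 0.00196). The groups did not overlap in either treatment. Slc12a2, the chloride-importing cotransporter NKCC1, rose as well, by 1.28 with GW5074 (adjusted p = 0.000734) and 0.87 in low potassium (adjusted p = 0.00710). Its mean was 1082 ± 222 with GW5074 at 6 h, against 436.7 ± 74.8 at 3 h, and 883 ± 225 in low potassium at 6 h, against 470.9 ± 72.8 at 3 h (SD, n = 3 each). Slc12a7, Clcn2 and Clcn3 did not pass.

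The GABA-B receptor, a G-protein-coupled receptor of 2 different subunits, had both genes tested. Gabbr2 rose by 1.36 with GW5074 (2.57-fold, adjusted p = 0.00134) and by 1.12 in low potassium (2.17-fold, adjusted p = 0.00482). Gabbr1 passed with GW5074 by a small amount (0.30, adjusted p = 0.0488). That call ended in 14 of 20 other settings (up to adjusted p = 0.182, without GW_6h A). In low potassium Gabbr1 had 0.02 (adjusted p = 0.931). Its other probe sets past the filter disagreed. The next brightest had 1008, 1010 and 888 with GW5074 at 6 h, against 660, 687 and 765 at 3 h. Another overlapped with GW5074 but had 320, 352 and 289 in low potassium at 6 h, against 363, 381 and 398 at 3 h. The dimmest of them overlapped in both treatments. Among 7 tested genes for GABA synthesis, vesicle loading, uptake and breakdown, 0 were called with GW5074 and 1 in low potassium. That gene, Slc38a1, a glutamine transporter, fell by 0.37 in low potassium (adjusted p = 0.0306) and had 0.05 with GW5074. Its call ended without LK_3h A (0.0839), LK_3h B (0.0857), LK_3h C (0.0561), LK_6h A (0.0862) or LK_6h C (0.120). Counting all 20 other settings, it was lost in 6. Gad1, which makes GABA, had 0.11 and 0.13 and did not pass in either.

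Of 18 genes for receptor anchoring, assembly and traffic, 3 rose and 2 fell with GW5074, and 2 rose and 2 fell in low potassium. Nrxn2, a presynaptic adhesion protein, rose by 0.96 with GW5074 (adjusted p = 0.00271) and 0.65 in low potassium (adjusted p = 0.0237), where the call ended without LK_3h A (0.0623), LK_3h B (0.101), LK_6h A (0.0635) or LK_6h C (0.0543). Nsf, a membrane fusion ATPase, rose by 0.52 with GW5074 (adjusted p = 0.0135) and 0.44 in low potassium (adjusted p = 0.0318). With GW5074 its call ended without GW_3h B (0.0554) or GW_6h A (0.0710), and in low potassium without LK_3h A (0.114), LK_3h B (0.0982), LK_6h A (0.0947) or LK_6h C (0.135). Counting all 20 other settings, the low-potassium call of Nsf was lost in 6. Gabarap, which links the receptor to microtubules, fell by 0.38 with GW5074 (adjusted p = 0.00328) and 0.25 in low potassium (adjusted p = 0.0302). The low-potassium call of Gabarap ended without LK_3h A (0.0666), LK_3h B (0.120), LK_6h B (0.0582) or LK_6h C (0.101). Counting all 20 other settings, it was lost in 6, up to adjusted p = 0.121. Dag1, dystroglycan, rose with GW5074 (0.51, adjusted p = 0.0425, lost in 11 of 20 other settings, up to adjusted p = 0.175 without GW_3h B). In low potassium Dag1 had 0.15 and did not pass. Rdx, the alpha 5 anchor radixin, fell with GW5074 (-0.60, adjusted p = 0.00837). In low potassium Rdx had -0.39 and did not pass, though it did in 3 of 20 other settings. Plcl2, a phospholipase C-like protein, fell in low potassium (-0.59, adjusted p = 0.0160), a call that ended without LK_3h A (0.0720). With GW5074 Plcl2 had -0.33 and did not pass. Gphn, the postsynaptic scaffold gephyrin, had -0.23 and -0.12 and did not pass. Differences between the treatments for these genes are covered by the contrast above, in which none passed. Of the genes for steroid and benzodiazepine site ligands, 2 were tested (Dbi and Tspo) and 0 passed in either treatment.

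**Figure D3:**
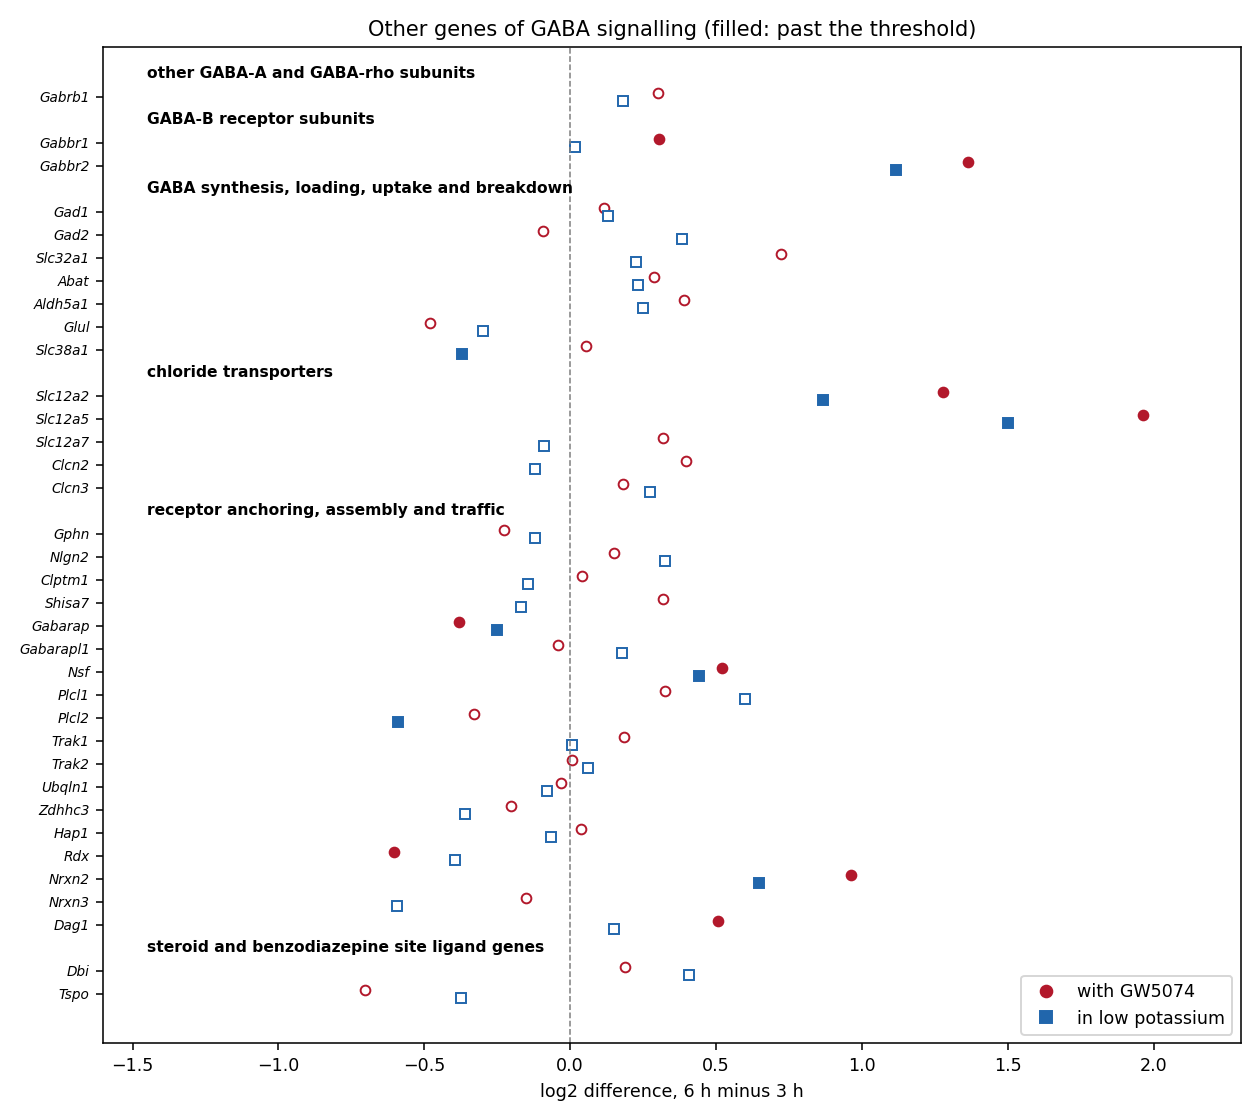
Log2 difference of 6 h minus 3 h (horizontal axis) for 35 other genes of GABA signalling by list, with circles for GW5074, squares for low potassium and filled symbols past the threshold. Slc12a5, Slc12a2 and Gabbr2 lie farthest to the right in both treatments, between 0.87 and 1.96.

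Markers of the cultured cells moved with time too. Of 13 granule neuron markers tested, 12 rose with GW5074 and 7 in low potassium, against 13.5% and 11.5% of all genes tested. The median difference of the list was 0.90 with GW5074 and 0.68 in low potassium. For GW5074 against low potassium no granule neuron marker passed without the block, and 1 passed at 6 h with it, a rise. The sum over the list was 13384 to 16731 with GW5074 at 6 h and 13754 to 15792 in low potassium at 6 h. It was 6807 to 8183 with GW5074 at 3 h and 6964 to 8909 in low potassium at 3 h. Neurod1, a transcription factor of this lineage, averaged 3105 ± 217, 3270 ± 281, 1504 ± 199 and 1552 ± 322 in those groups (SD, n = 3 each). Astrocyte markers summed to 3104 to 3353, 2995 to 4742, 1793 to 2157 and 1970 to 2325 in the same order, and 1 of 7 tested, Gfap, rose (1.92 with GW5074 and 1.87 in low potassium). Gfap averaged 1658, 1946, 421 and 473 in that order, so the rise of the sum lay mostly in this gene. The median difference of the astrocyte list was -0.01 with GW5074 and 0.07 in low potassium. Oligodendrocyte lineage markers summed to 1885 to 2786, 2330 to 2536, 2662 to 3388 and 3139 to 3978, with 1 of 7 called in each treatment, a fall. Markers of Purkinje and other GABAergic neurons summed to 2996 to 3758, 2702 to 3614, 2736 to 3254 and 2816 to 3433, with 2 of 11 rising and 2 falling with GW5074, and 0 rising and 1 falling in low potassium. Microglia markers summed to 303 to 678 and those of endothelial cells and fibroblasts to 101 to 218 over all arrays, with 0 called. A marker whose mean intensity lay below the filter's limit of 28.0 was not tested, which does not show that it was absent. By that limit all 13 granule neuron markers on the array were kept, 11 of 12 for Purkinje and other GABAergic neurons, 7 of 8 for astrocytes, 7 of 8 for the oligodendrocyte lineage, 4 of 8 for microglia and 2 of 6 for endothelial cells and fibroblasts. The part of these cell types in the members' differences was not tested. In bulk samples fewer cells of a type and less RNA per cell cannot be told apart.

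Gabra6 had the largest SD of the members over the 12 arrays and was used to find like patterns. By root-mean-square difference of log2 values, each centred on its own mean over 12 arrays, the closest 5 of 10253 other genes were Vsnl1 (0.15), Fat2 (0.16), Igsf21 (0.22), Ccng2 (0.23) and Ttyh2 (0.25), where the median gene had 1.10. Fat2, a granule neuron cadherin, is also in the marker list. Vsnl1 encodes a neuronal calcium sensor and Igsf21 a synaptic adhesion protein. Ccng2 encodes a cyclin and Ttyh2 a membrane protein of the tweety family. These genes were chosen for the likeness, so their differences are a description: 6 h minus 3 h ran from 1.95 to 2.24 with GW5074 and from 1.87 to 1.93 in low potassium.

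**Figure D4:**
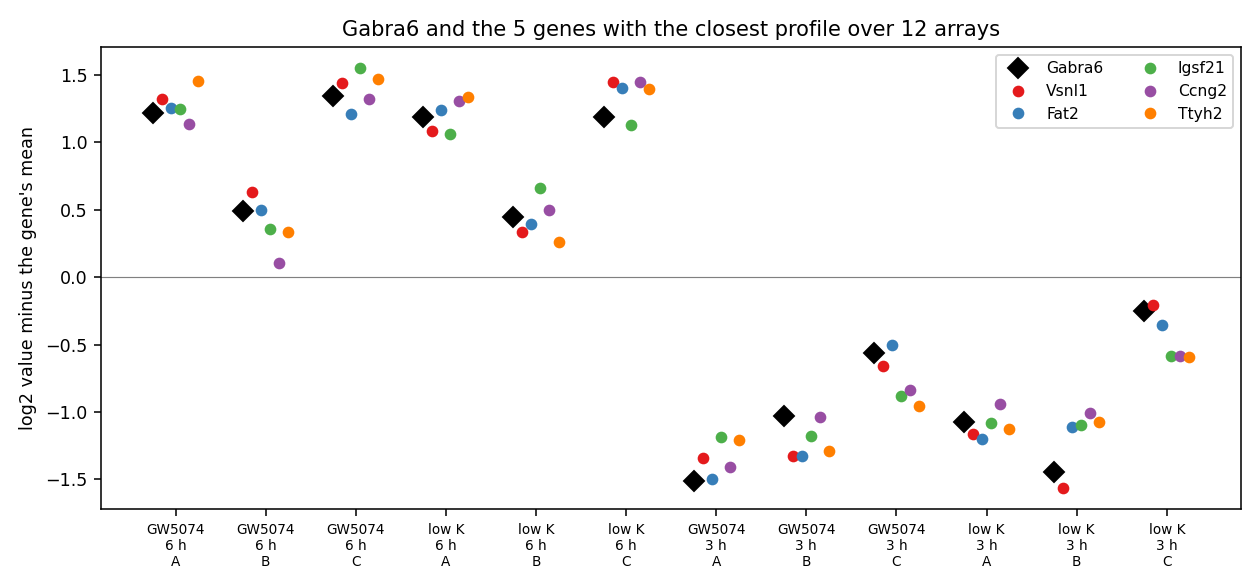
Log2 value minus each gene's own mean (vertical axis) on the 12 arrays for Gabra6 (diamonds) and the 5 genes with the closest profile (circles). On the B arrays at 6 h all 6 genes lie lower than on the A and C arrays of the same group.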

How the data were processed

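The authors deposited linear intensity values, 1 for each of 31099 Affymetrix rat probe sets on each array. The 57 controls among them were left out. From the values, the deposited intensity of each array has a mean of 150.05 to 150.06 after the lowest and highest 2% are removed. The sources used here do not name the summarisation software, and no detection calls were used. The platform table gave 1 symbol to 20826 probe sets, several to 436 and none to 9780, and 20758 were matched by Entrez identifier to RefSeq (GRCr8).

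Intensities were quantile-normalised, 16 was added and log2 was taken. Probe sets with a mean at or above the 40th percentile (28.0) were kept. limma 3.58.1 in R 4.3.3 (two-sided; lmFit, then eBayes with trend) fitted 4 group means over 12 arrays, without a block (8 residual degrees of freedom). Means with an SD are of deposited intensities. Figures used matplotlib 3.10.9 in Python 3.11.15. The script was tested on simulated data.

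A fit with a replicate block used the letters of the labels within each time (4 residual degrees of freedom). After removal of group means, the arrays of a letter correlated by 0.21 to 0.65 in the 6 pairs. Each GW5074 array's best match among the low-potassium arrays of its time was its own letter, so the letters were taken to pair the arrays. The best matches of the low-potassium arrays were not looked up.

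Named were all members, other subunits on the array, listed pathway genes past the threshold (up to 4 per list and comparison) and the 5 genes most like the most variable member. The members, the lists and the markers were chosen with earlier results of these data known. Alternatives were other pseudocounts (1 and 64), filters, scalings, array weights, no trend, the block and leaving out arrays.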

Additional observations from a re-analysis of the deposited data

How the results depend on the processing

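Across 27 settings in all, Gabra6 was called in both treatments in every one of the 20 alternatives to which the time comparisons apply, and no member was called for GW5074 against low potassium. The number of members called for time with GW5074 (3) ran from 1 (without GW_6h C) to 3 when an array was left out and was 6 with array weights (Gabra2, Gabra3, Gabra4, Gabra6, Gabrb2 and Gabrd), where 51.9% of all genes were called, against 27.6% without weights. Without GW_6h C 17.9% of all genes were called. In low potassium (3) it ran from 1 (without LK_3h A, LK_3h B, LK_6h A or LK_6h C) to 4 and was 1 with no filter. The share of all genes called fell as well in those settings with 1 member, to between 13.3% and 17.9%, against 25.6% with all arrays and the filter. With no filter Gabrb2 had an adjusted p of 0.0627 and Gabra2 of 0.0508. Gabrb2 also lost its low-potassium call without the mean-variance trend (0.0620). Gabra3 could not be tested with the filter at the 60th percentile. The replicate block was fitted for GW5074 against low potassium and not for the time comparisons. In that fit no member was called, and Gabrd at 6 h had a difference of 0.29. Of 28 member differences, 14 changed sign in some setting, none of them called. Leaving out arrays gave, at 6 h for GW5074 minus low potassium, Gabra2 -0.152 to 0.393, Gabra3 -0.354 to 0.0730, Gabra4 -0.237 to 0.174, Gabra5 -0.146 to 0.428, Gabra6 -0.171 to 0.339 and Gabrb2 -0.161 to 0.555. At 3 h it gave Gabra2 -0.0171 to 0.306, Gabra3 -0.326 to 0.414, Gabra4 -0.261 to 0.0221, Gabra5 -0.00260 to 0.128, Gabra6 -0.371 to 0.227, Gabrb2 -0.117 to 0.0788 and Gabrd -0.0514 to 0.0888. For time it gave, in low potassium, Gabrd -0.123 to 0.0175 and Gabbr1 -0.0641 to 0.0745, and with GW5074 Slc38a1 -0.0462 to 0.134. Without both 6 h B arrays, Gabra2 and Gabra4 for GW5074 minus low potassium at 6 h were -0.0365 and 0.174, and Gabrd for time in low potassium was 0.00641. With array weights, Gabra3 and Gabra6 were -0.0873 and 0.0216 at 3 h and Gabra3 was 0.0997 at 6 h. With the deposited scaling, time gave Gabbr1 -0.0347 in low potassium and Slc38a1 -0.0285 with GW5074. The cause of these shifts was not tested. With 3 arrays a group, the number of arrays limits the precision, and dim probe sets such as that of Gabra3 carry little signal.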
